A study of Bos taurus with 6 samples.

Results

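Glycogen metabolism was followed through 9 genes, GYS1, GBE1, GYG1, UGP2, PGM1, PYGL, PYGB, PYGM and PPP1R3C, in bovine embryonic stem cells grown on 2 kinds of feeder layer. They were fixed by name and found by gene symbol and Entrez identifier, and all 9 were among the 19163 genes of the count table. The cells were the line F7, derived from in vitro fertilized Holstein Friesian embryos, at 15 passages. MC-F7 cells (labelled 1M-F7 in the deposit) grew on mouse embryonic fibroblasts whose division had been stopped by mitomycin C, and MT-F7 cells grew on mouse embryonic fibroblasts fixed with methanol, with 3 RNA-seq libraries in each group. Both groups were kept in the same medium, with fibroblast growth factor and the Wnt inhibitor IWR1, but it was refreshed every day for MC-F7 and every other day for MT-F7, so feeder and feeding interval cannot be told apart. In both groups the RNA came from cells that stayed afloat on gelatin, a step that removes feeders. F7 is 1 cell line, and the labels do not say whether the replicates were grown separately. The study's methods speak of technical replicates for its data in general, without naming the RNA-seq libraries, so the p values may cover technical spread only.

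Glycogen is a branched store of glucose. Phosphoglucomutase (PGM1) interconverts glucose 6-phosphate and glucose 1-phosphate, UDP-glucose pyrophosphorylase (UGP2) makes the activated sugar UDP-glucose, glycogenin (GYG1) primes the chain, glycogen synthase (GYS1) lengthens it and the branching enzyme (GBE1) adds branch points. Glycogen phosphorylase releases glucose 1-phosphate from the chain ends and exists in forms named for liver (PYGL), brain (PYGB) and muscle (PYGM), while PPP1R3C brings protein phosphatase 1 to the glycogen particle.

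The total counts per library were 21958386 to 23414319 in MC-F7 and 24271208 to 24933430 in MT-F7. Genes of the mitochondrial genome took 16.3% to 28.3% of the counts in MC-F7 and 18.0% to 27.9% in MT-F7, and replicate 3 was the highest in either group. Of the pluripotency markers analysed, POU5F1, NANOG, LIN28A and SALL4 all had at least 223 counts in every library, and the first 3 of these fell in MT-F7 (edgeR adjusted p of 0.0215 or less). The summed CPM of 10 fibroblast markers was 221 to 298 in MC-F7 and 338 to 392 in MT-F7. Most of this came from COL1A1, with means of 205 and 268 CPM, whose change was not called (edgeR adjusted p = 0.0942). All 10 were detected, and 3 rose (COL3A1, PDGFRB and POSTN) and 1 fell (TWIST2) in MT-F7. That is 40.0% of the list, against 23.2% of all tested genes. COL1A2, THY1, PDGFRA, DCN and LUM overlapped between the groups. The paper reported a higher rate of alignment to the bovine genome in MT-F7 than in MC-F7. From this it proposed that the fixed feeders left less feeder contamination. Mouse reads were not separated from bovine reads here, so the part of feeder RNA in the values below was not tested.

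Of the 9 genes, 3 fell in MT-F7 and 1 rose. The liver and muscle phosphorylases PYGL and PYGM and the branching enzyme GBE1 fell, by 2.25-fold, 3.17-fold and 1.93-fold. The glycogenin gene GYG1 rose 2.37-fold. GYS1, UGP2, PGM1, PYGB and PPP1R3C did not pass the threshold, an adjusted p under 0.05 in edgeR's quasi-likelihood test fitted to all 13001 tested genes. All 9 genes had enough counts to be tested. The background was high, since 23.2% of all tested genes passed, 11.9% higher and 11.3% lower in MT-F7 (1553 and 1463 genes). In the deposited TPM values, which still hold library size, limma on log2(TPM + 1) gave a split of 1894 higher and 929 lower. After rescaling to 1000000 per library it was 1763 higher and 1090 lower. For the 9 genes it was again 1 higher and 3 lower in both. The median log2 fold change was -0.18 over the 9 genes and -0.0026 over all tested genes. The MT-F7 libraries lay wholly below the MC-F7 libraries in 4 of the 9 genes, against 20.1% of all genes, and wholly above in 1, against 19.9%. In bulk RNA, fewer cells that express a gene and less RNA per cell cannot be told apart. Levels are compared between libraries as CPM, counts scaled to 1000000 per library with TMM factors, and log2 fold changes are those of MT-F7 over MC-F7.

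**Figure D1:**
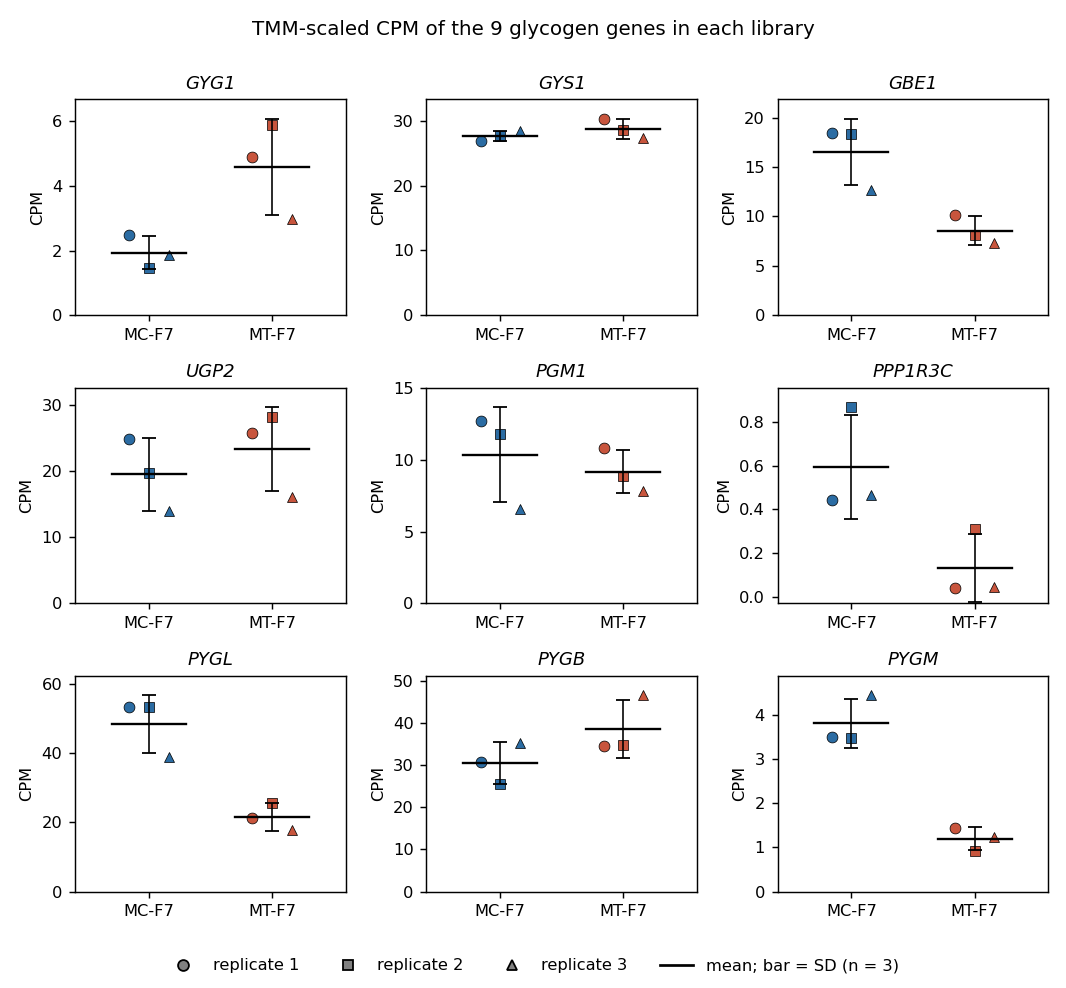
CPM (y axis, TMM-scaled, from 0 apart from PPP1R3C, where the SD bar reaches below it) of each of the 9 genes in MC-F7 (blue) and MT-F7 (red), with symbols for the replicate numbers, the mean as a line and the SD as a bar (n = 3). The groups are separate for GYG1, GBE1, PYGL, PYGM and PPP1R3C, and overlap for GYS1, UGP2, PGM1 and PYGB.

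Among the genes that build the chain, GYG1 (Entrez gene 280812) had 2.48, 1.45 and 1.87 CPM in the MC-F7 replicates 1 to 3 and 4.90, 5.87 and 2.97 CPM in the MT-F7 replicates. Each MT-F7 library was above each MC-F7 library, although MT-F7 replicate 3 was not far from MC-F7 replicate 1. The mean rose from 1.93 ± 0.516 to 4.58 ± 1.48 CPM (SD, n = 3). On the log2 scale the change was 1.25 (standard error 0.321, edgeR adjusted p = 0.0135). With 35 to 152 counts in a library, this call was not firm. It was lost when MC-F7 replicate 2 (adjusted p = 0.068), MT-F7 replicate 1 (adjusted p = 0.0505) or MT-F7 replicate 2 (adjusted p = 0.0675) was left out of the edgeR fit.

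GYG1 was the minor of the bovine glycogenin genes measured. GYG2, the other glycogenin gene, had 9.201, 14.3 and 13.8 CPM in MC-F7 and 10.96, 10.04 and 14.0 CPM in MT-F7, and the groups overlapped (log2 fold change -0.092, standard error 0.213, edgeR adjusted p = 0.795). Genes were compared with each other per length, in the deposited TPM values rescaled to 1000000 per library. On that scale GYG2 stood at 8.24 ± 1.97 TPM in MC-F7 and 8.12 ± 1.05 TPM in MT-F7, and GYG1 at 1.04 ± 0.262 and 2.65 ± 0.955 TPM. GYG1 made up 18.1%, 7.69% and 9.97% of the summed glycogenin TPM in MC-F7 against 26.8%, 32.4% and 14.8% in MT-F7. These shares overlapped, because MT-F7 replicate 3 lay below MC-F7 replicate 1.

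GYS1 (786335), the glycogen synthase gene of muscle and most other tissues, had the log2 fold change nearest to 0 of the 9. Its level was 26.9, 27.7 and 28.5 CPM in MC-F7 and 30.2, 28.6 and 27.3 CPM in MT-F7. The groups overlapped, and the log2 fold change was 0.053 with a 95% interval of -0.26 to 0.37 (edgeR adjusted p = 0.832). The liver synthase gene GYS2 had 5 counts over the MC-F7 libraries and 4 over the MT-F7 libraries, too few to be tested.

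GBE1 (615745) had 18.5, 18.4 and 12.6 CPM in MC-F7 and 10.2, 8.15 and 7.35 CPM in MT-F7. Every MT-F7 library was below every MC-F7 library, and replicate 3 was the lowest of both groups. The mean fell from 16.5 ± 3.35 to 8.55 ± 1.45 CPM (SD, n = 3). On the log2 scale the change was -0.95 (standard error 0.207, edgeR adjusted p = 0.00538). Branching enzyme RNA was also compared with synthase RNA within each library. The ratio of GBE1 to GYS1 in TPM was 0.825, 0.796 and 0.532 in MC-F7 against 0.403, 0.342 and 0.323 in MT-F7, without overlap. This ratio, like the share of GYG1, was chosen after the values had been seen and has no test.

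The precursor enzymes did not separate the groups. UGP2 (281565) had 24.9, 19.7 and 13.9 CPM in MC-F7 and 25.7, 28.1 and 16.1 CPM in MT-F7. Its log2 fold change was 0.26 with a 95% interval of -0.27 to 0.78 (edgeR adjusted p = 0.486). PGM1 (534402) had 12.7, 11.8 and 6.59 CPM in MC-F7 and 10.8, 8.84 and 7.86 CPM in MT-F7. Its log2 fold change was -0.18 with a 95% interval of -0.71 to 0.35 (edgeR adjusted p = 0.645). In both genes replicate 3 was the lowest library of each group, and the spread within a group was wider than the difference between the groups. With intervals this wide, neither gene can be called level.

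Replicate 3 was the lowest library of both groups in 4 of the 9 genes (GBE1, UGP2, PGM1 and PYGL) and the highest of both in 1 (PYGB). Over all tested genes these shares were 25.8% and 24.7%. The higher mitochondrial share of those libraries goes with this, and its part was not tested. Without both libraries numbered 3, a choice made after the data had been seen, the same 4 genes passed, with log2 fold changes of 1.48 for GYG1, -0.99 for GBE1, -1.17 for PYGL and -1.55 for PYGM.

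On the breakdown side, PYGL (505472) had the most counts of the 9 genes in MC-F7, with 53.2, 53.1 and 38.8 CPM against 21.2, 25.6 and 17.7 CPM in MT-F7. The groups were well apart, since the lowest MC-F7 library was above the highest MT-F7 library by more than the range within MT-F7. The mean fell from 48.4 ± 8.31 to 21.5 ± 3.96 CPM (SD, n = 3). On the log2 scale the change was -1.17 (standard error 0.188, edgeR adjusted p = 0.000701). PYGL is the phosphorylase known from liver. Of the liver markers, AFP and APOB had 0 counts in all libraries and HNF4A had 1 count in 1 library. ALB and FGB were detected in every library, with 17 to 50 and 12 to 33 counts. FGB was lower in each MT-F7 library and did not pass (log2 fold change -1.04, edgeR adjusted p = 0.0751), while ALB overlapped between the groups. The 6 liver markers summed to 2.21 to 3.13 CPM in MC-F7 and 2.79 to 4.97 CPM in MT-F7. Of the 6, only TTR passed, and it rose. The part of the liver markers in the PYGL result was not tested.

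PYGM (327664), the muscle phosphorylase, had 3.49, 3.48 and 4.44 CPM in MC-F7 and 1.43, 0.927 and 1.23 CPM in MT-F7. The groups were far apart relative to their spread, and MT-F7 replicate 1 was the highest of its group. The mean fell from 3.81 ± 0.551 to 1.20 ± 0.255 CPM (SD, n = 3). On the log2 scale the change was -1.66 (standard error 0.301, edgeR adjusted p = 0.00164). Muscle markers moved in both directions beside it. CKM, muscle creatine kinase, and MYH3, an embryonic muscle myosin, fell, with log2 fold changes of -1.44 and -1.95 (edgeR adjusted p = 0.0342 and 0.00332), while DES, the muscle intermediate filament desmin, rose with a log2 fold change of 1.00 (edgeR adjusted p = 0.00132). MYOG had 0 counts in all libraries and MYOD1 had 0 to 4 counts in a library. The 6 muscle markers summed to 91.3 to 122 CPM in MC-F7 and 90.1 to 102 CPM in MT-F7. Most of this came from ACTA1, with means of 82.7 and 63.3 CPM, which did not pass (edgeR adjusted p = 0.113). The part of the muscle markers in the PYGM result was not tested.

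PYGB (505560), the brain phosphorylase, did not pass the threshold, unlike the other phosphorylases, and this contrast between genes was not tested. It had 30.8, 25.6 and 35.4 CPM in MC-F7 and 34.6, 34.8 and 46.7 CPM in MT-F7, and MC-F7 replicate 3 lay above 2 of the MT-F7 libraries. The log2 fold change was 0.34 with a 95% interval of -0.049 to 0.73 (edgeR adjusted p = 0.195). Of the 5 neural markers analysed, PAX6 and MAP2 rose, with log2 fold changes of 2.92 and 2.13. NES, with a mean of 312 CPM in MC-F7 and 412 CPM in MT-F7, and TUBB3, with 202 and 174 CPM, did not pass (edgeR adjusted p = 0.0831 and 0.309), and GFAP, with 2 to 11 counts in a library, was not tested. The 5 summed to 483 to 559 CPM in MC-F7 and 620 to 687 CPM in MT-F7, most of it from NES and TUBB3. Their part in the PYGB values was not tested.

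**Figure D2:**
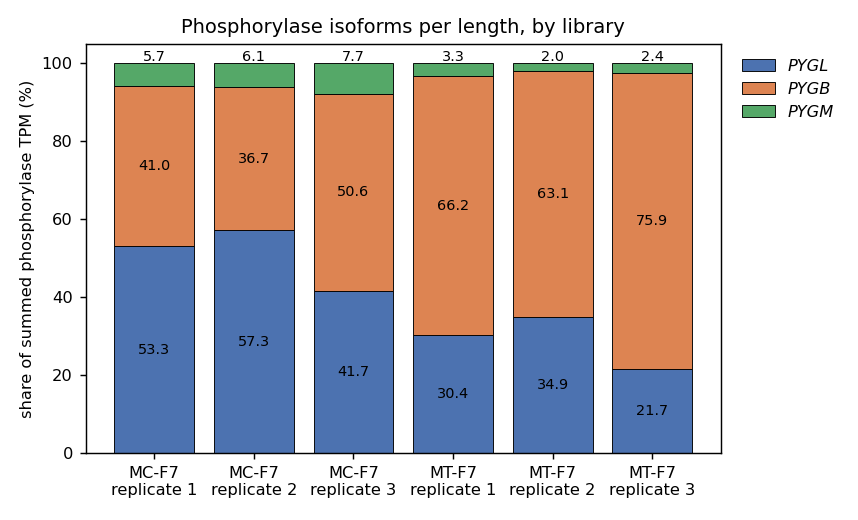
Share of PYGL, PYGB and PYGM in the summed phosphorylase TPM (y axis, percent) in each of the 6 libraries (x axis). PYGB holds 36.7% to 50.6% in the MC-F7 libraries and 63.1% to 75.9% in the MT-F7 libraries, while PYGL holds 41.7% to 57.3% and 21.7% to 34.9%.

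The make-up of phosphorylase RNA was compared within each library, where the scaling cancels. PYGL was 53.3%, 57.3% and 41.7% of the summed phosphorylase TPM in MC-F7 against 30.4%, 34.9% and 21.7% in MT-F7. PYGB was 41.0%, 36.7% and 50.6% in MC-F7 against 66.2%, 63.1% and 75.9% in MT-F7. PYGM was a small part throughout, with 6.49% ± 1.09 in MC-F7 and 2.61% ± 0.664 in MT-F7. No share overlapped between the groups. The shares of a library add up to the whole, so a lower share of PYGL goes with a higher share of PYGB, and they are not separate results. The order of PYGL and PYGB was PYGL first in MC-F7 replicates 1 and 2 and PYGB first in the remaining libraries.

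The 3 phosphorylases together stood at 25.6, 25.0 and 23.2 TPM in MC-F7 and 19.2, 20.9 and 21.2 TPM in MT-F7. The sum was thus lower in each MT-F7 library, but by less than PYGL alone. The ratio of GYS1 to the summed phosphorylases was 0.382, 0.423 and 0.434 in MC-F7 against 0.617, 0.553 and 0.473 in MT-F7, without overlap. The distance between MC-F7 replicate 3 and MT-F7 replicate 3 was small beside the spread of the MT-F7 libraries. These shares and ratios were not tested.

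Per length, the order of the 9 genes in MC-F7 was PYGL with 12.5 ± 2.51 TPM, PYGB with 10.5 ± 1.29, GYS1 with 10.1 ± 0.402, UGP2 with 8.12 ± 2.37 and GBE1 with 7.28 ± 1.67. Neighbours among these 5 overlapped between libraries, though UGP2 lay above GBE1 within each MC-F7 library. PGM1 with 3.22 ± 1.09 TPM, PYGM with 1.59 ± 0.182, GYG1 with 1.04 ± 0.262 and PPP1R3C with 0.304 ± 0.135 followed, and each of these lay below the one before it in all libraries. In MT-F7 the order was PYGB with 14.0 ± 1.85 TPM, GYS1 with 11.1 ± 0.957, UGP2 with 10.3 ± 3.20, PYGL with 5.91 ± 1.34, GBE1 with 3.99 ± 0.765, PGM1 with 3.0 ± 0.562 and GYG1 with 2.65 ± 0.955. From GYS1 to GYG1 each neighbour in that order overlapped with the next between libraries, and PYGB lay above GYS1 in all libraries. Within each MT-F7 library, however, UGP2 lay above PYGL, PYGL above GBE1 and GBE1 above PGM1. PYGM with 0.529 ± 0.108 TPM and PPP1R3C with 0.0719 ± 0.0872 TPM came last, without overlap. By these means PYGL moved from the first to the fourth place and GYG1 passed PYGM. In MC-F7 replicate 3, however, PYGL already lay below PYGB and GYS1.

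PPP1R3C (539466) was near the limit of detection. The MC-F7 libraries held 10, 21 and 10 counts and the MT-F7 libraries 1, 8 and 1, where 3 counts, taken as the smallest detected amount, are 0.120 to 0.137 CPM. Each MT-F7 library was below each MC-F7 library, but MT-F7 replicate 2 was close to 2 MC-F7 libraries. The summed counts, 41 against 10, gave a ratio of 4.44 after library size, with a 95% exact interval of 2.19 to 9.94 that covers counting error only. The log2 fold change was -2.12 with a standard error of 0.740 (edgeR adjusted p = 0.0558). Without MT-F7 replicate 2 the value was -3.69 and passed (edgeR adjusted p = 0.0186). The study picked PPP1R3C, and also PPP1R3B, GPI and HK2 below, for lists of lowered genes from these same libraries, so their direction here is not independent evidence.

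A further list of 23 genes held other glycogen enzymes and regulators. It also held PGM2, PGM2L1 and PGM5, relatives of PGM1 whose part in glycogen metabolism was not examined. Of these other glycogen pathway genes, as the list is called below, 17 could be tested, and 2 of the 17 passed (11.8%, against the background of 23.2%). PPP1R3B fell and PHKB rose. The median log2 fold change of the 17 was 0.083, with 9 values above 0 and 8 below.

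**Figure D3:**
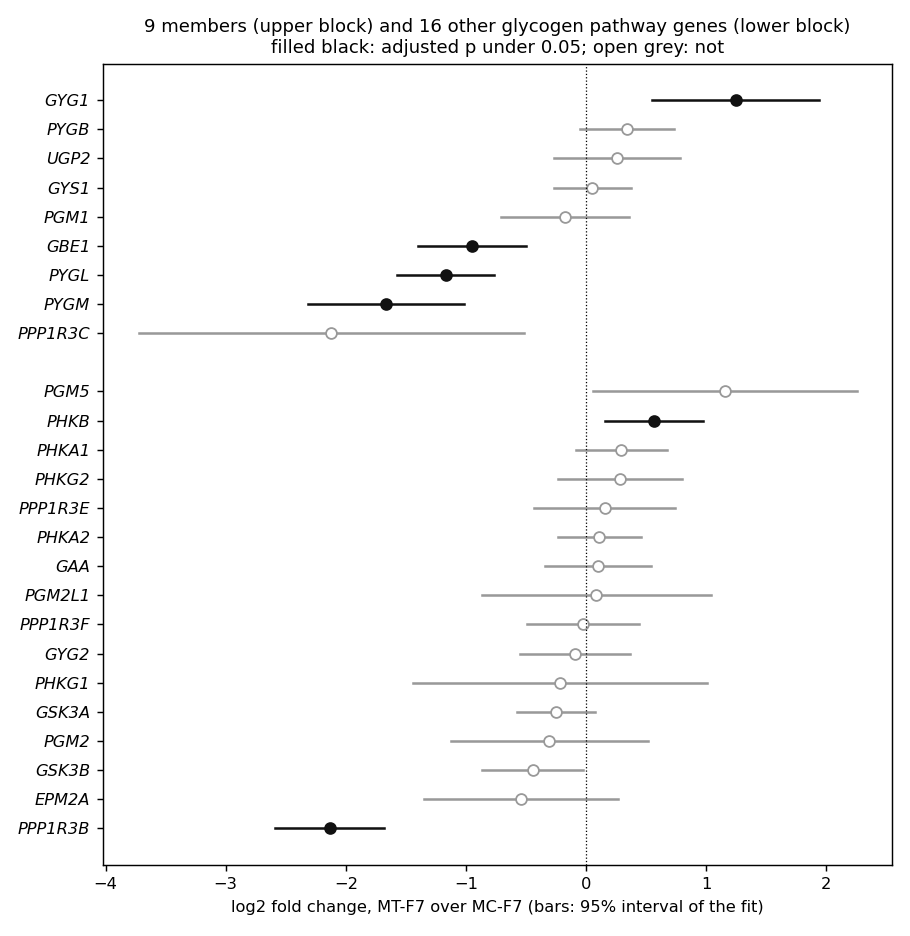
Log2 fold change of MT-F7 over MC-F7 (x axis) with its 95% interval for the 9 genes (upper block) and 16 of the other tested glycogen pathway genes (lower block), filled where the adjusted p was under 0.05. GYG1 and PHKB are filled above 0, and GBE1, PYGL, PYGM and PPP1R3B below 0.

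PPP1R3B (liver type, also called GL) is a relative of PPP1R3C that brings the same phosphatase to glycogen. It had 11.2, 14.0 and 10.8 CPM in MC-F7 and 2.75, 2.90 and 2.55 CPM in MT-F7. The groups were far apart, and the MT-F7 libraries were nearly equal. The mean fell from 12.0 ± 1.73 to 2.73 ± 0.175 CPM (SD, n = 3), or 4.38-fold. On the log2 scale the change was -2.13 (standard error 0.21, edgeR adjusted p = 1.56e-05). Its log2 fold change stood beside that of PPP1R3C, and it was the more abundant of the pair, with 6.01 ± 1.11 TPM in MC-F7 and 1.45 ± 0.158 TPM in MT-F7. The targeting subunits PPP1R3E and PPP1R3F overlapped between the groups (log2 fold changes 0.15 and -0.026). PPP1R3A had 0 counts in all libraries, and PPP1R3D and PPP1R3G, with at most 17 and 5 counts in a library, were too low to be tested.

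**Figure D4:**
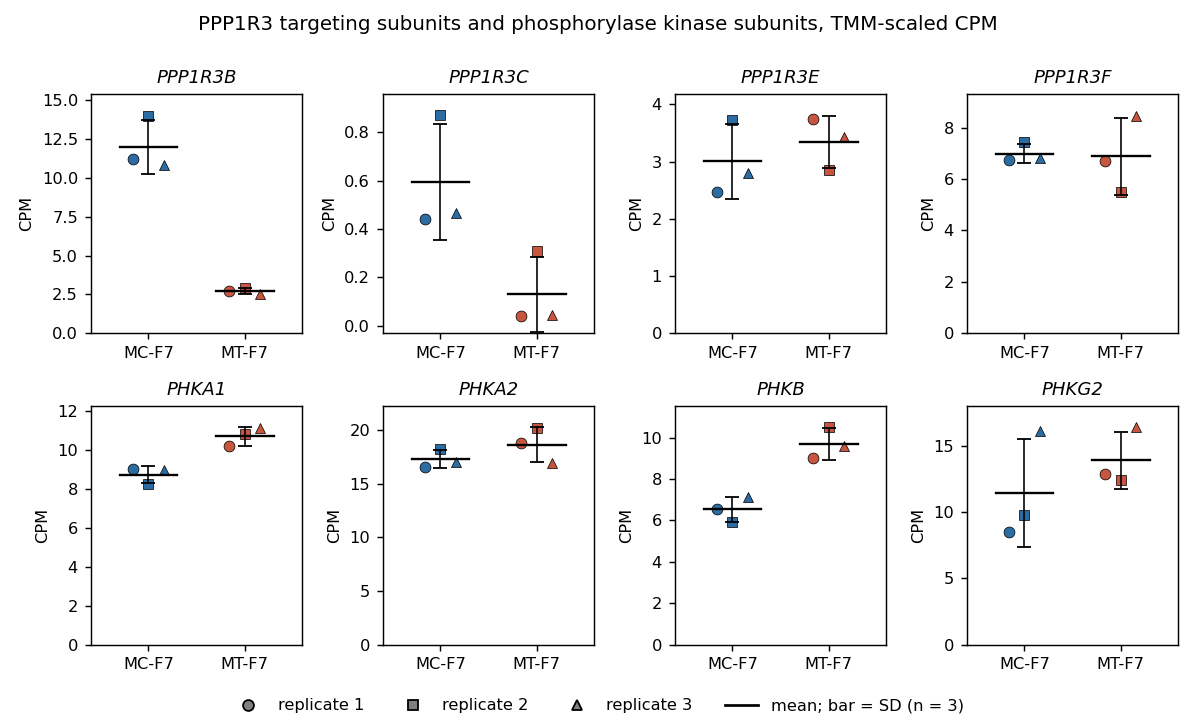
CPM (y axis, TMM-scaled) of 4 targeting subunits of protein phosphatase 1 (upper row) and 4 phosphorylase kinase subunits (lower row) in MC-F7 (blue) and MT-F7 (red), with replicate symbols, the mean and the SD (n = 3; the bar of PPP1R3C reaches below 0). PPP1R3B lies at 10.8 to 14.0 CPM in MC-F7 and 2.55 to 2.90 CPM in MT-F7, and PHKB at 5.93 to 7.15 and 9.004 to 10.5 CPM.

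Phosphorylase kinase, which switches phosphorylase on, is built from regulatory subunits (PHKA1 or PHKA2, and PHKB) and a catalytic subunit (PHKG1 or PHKG2). PHKB had 6.55, 5.93 and 7.15 CPM in MC-F7 and 9.004, 10.5 and 9.60 CPM in MT-F7. It rose, and the groups did not overlap (log2 fold change 0.57, standard error 0.189, edgeR adjusted p = 0.0452), but so close to the threshold that of the 6 fits with 1 library removed it passed only in the one without MC-F7 replicate 3. Those fits gave log2 fold changes of 0.50 to 0.63. PHKA1 was also higher in each MT-F7 library, at 10.7 ± 0.470 against 8.71 ± 0.432 CPM, but did not pass (log2 fold change 0.29, 95% interval -0.083 to 0.67, edgeR adjusted p = 0.250). PHKA2, PHKG1 and PHKG2 overlapped between the groups.

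Among the rest of the list was GSK3B, a kinase that phosphorylates glycogen synthase. Its mean was 21.2 ± 2.24 CPM in MC-F7 and 15.5 ± 3.59 CPM in MT-F7, and it did not pass (log2 fold change -0.44, edgeR adjusted p = 0.120). Every MT-F7 library was lower, but only just, with 18.4 CPM in MT-F7 replicate 2 against 18.6 CPM in MC-F7 replicate 3. GSK3A, GAA, the lysosomal glucosidase that digests glycogen, EPM2A, PGM2 and PGM2L1 overlapped between the groups. PGM5 was higher in every MT-F7 library and did not pass (log2 fold change 1.155, edgeR adjusted p = 0.120), at 6 to 37 counts in a library. Here too the groups nearly met, with 1.06 CPM in MC-F7 replicate 1 and 1.08 CPM in MT-F7 replicate 2. STBD1, with 2 to 23 counts in a library, was not tested.

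The sugar phosphates that glycogen is made from are shared with other routes. Of 15 genes that bring in, make or use glucose 6-phosphate or UDP-glucose, all were tested and 6 passed (40.0%, against 23.2% of all genes), 5 lower and 1 higher, with a median log2 fold change of -0.063. The 5 that fell were the glucose transporters SLC2A3 (log2 fold change -3.27) and SLC2A1 (-0.88), the hexokinases HK2 (-2.38) and HK1 (-0.89), and GPI (-1.18), which converts glucose 6-phosphate to fructose 6-phosphate (edgeR adjusted p between 2.25e-06 and 0.00382). The study had already reported SLC2A1, SLC2A3 and HK1 as reduced in MT-F7, and had listed HK2 and GPI as lowered. The fall of these 5 genes, and the share that passed, are therefore not independent evidence. SLC37A4, which carries glucose 6-phosphate into the endoplasmic reticulum, rose from 11.7 ± 3.26 to 22.4 ± 2.38 CPM. Its log2 fold change was 0.94 (edgeR adjusted p = 0.00537). The genes of UDP-glucose and galactose use GALT, GALK1, UGDH, UGGT1, UGGT2 and UGCG had log2 fold changes from -0.34 to 0.56 and did not pass. Of these, GALT and UGGT2 were higher in every MT-F7 library (log2 fold changes 0.35 and 0.56, edgeR adjusted p = 0.114 and 0.0730). GALK1, UGDH, UGGT1 and UGCG overlapped between the groups. By DESeq2's test 7 of the 15 passed. By limma on log2(TPM + 1) 9 passed, 4 higher and 5 lower, but these deposited values still hold library size. After the TPM values had been rescaled, limma passed 7 of the 15, 2 higher and 5 lower. UGP2, which makes UDP-glucose, was likewise among the genes that did not pass.

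**Figure D5:**
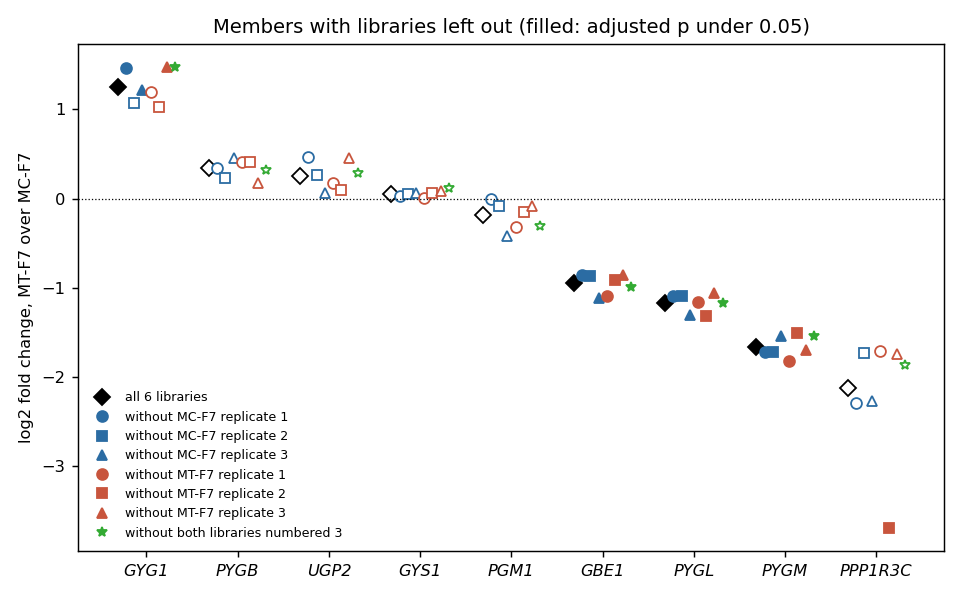
Log2 fold change of MT-F7 over MC-F7 (y axis) of the 9 genes (x axis) with all 6 libraries, with each library left out in turn and with both libraries numbered 3 left out, filled where the adjusted p was under 0.05. GBE1, PYGL and PYGM are filled and below 0 in each fit, GYG1 is filled in some, and PPP1R3C moves to -3.69 without MT-F7 replicate 2.

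GBE1, PYGL and PYGM passed whichever of the 6 libraries was removed. Their log2 fold changes in these fits were -1.11 to -0.86, -1.31 to -1.05 and -1.83 to -1.50. GYG1 kept its direction with log2 fold changes of 1.03 to 1.47 and passed in 3 of them. GYS1, UGP2, PGM1 and PYGB passed in none of the 6.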

How the data were processed

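RNA-seq libraries of MC-F7 and MT-F7 (3 each) were used. Reads were filtered by the authors, aligned to an Ensembl Bos taurus genome with HISAT2 2.0.5 and counted on genes with featureCounts 1.5.0-p3, and raw counts per Entrez gene were deposited. The genome build and strand setting are not given in the sources used here. A second deposited table is called TPM by the authors. For 9695 of 9711 genes of 50 or more counts throughout, TPM over count was constant across libraries (within 0.1%), and its columns sum to 154763 to 164394, so library size is still in it. It was rescaled where stated. Symbols came from the ARS-UCD2.0 RefSeq gene table for 19074 of 19163 genes.

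After filterByExpr (10 counts, total of 15), counts were scaled by TMM and compared by edgeR 4.0.16's quasi-likelihood test without a block (R 4.3.3), two-sided, with Benjamini-Hochberg adjustment over 13001 genes. Intervals are 95%. limma 3.58.1, DESeq2 1.42.0 and Python 3.11.15 were used besides. The tests were also run on simulated counts, with the same dispersion (spread between replicates) for all genes and few changed genes. These data differ from that setting, so the run checks the code and not the error rates here. Depth was 21958386 to 24933430 counts, and intervals from counts cover counting error only. No 2 libraries agreed within sampling noise. The members and lists were chosen with earlier results of these data known. Named were all 9 members and the genes of both further lists with an adjusted p under 0.05; others were named after their values had been seen. Alternatives were other scalings, filters, tests and tables, the replicate number as a block, and libraries left out. A few marker genes are not analysed here, and some list genes, 1 of them in the naming rule, are not reported here though the list counts hold them.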

Additional observations from a re-analysis of the deposited data

How the results depend on the processing

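Under 18 alternatives (16 for PPP1R3C), GBE1, PYGL, PYGM and PPP1R3B passed with the same direction in each, GYG1 passed in 15, PHKB in 12, PPP1R3C in 3 and PYGB in 1, while GYS1, UGP2 and PGM1 passed in none. With 1 library left out, 3 to 4 of the 9 members, 1 to 2 of the 18 to 19 other pathway genes, and 1914 to 3093 of all genes passed, the lowest without MC-F7 replicate 2. PHKB was lost with all genes of at least 1 count, which left 1 other pathway gene. A fit blocked on replicate number called 4674 genes, among them 6 members (PYGB and PPP1R3C in addition). Same-numbered libraries deviated together with correlations of 0.167, 0.0707 and 0.505. The value of 0.505, for the libraries numbered 3, was the highest of all pairs across the groups. MC-F7 replicates 1 and 2 correlated best with MT-F7 replicates 2 and 1 (0.368 and 0.221). The deviations were taken from the group means, so these correlations are tied to each other. They cannot decide whether the replicate numbers mark pairs. Whether the libraries numbered 3 were handled together is not stated and was not tested. In counts not divided by gene length, the share of PYGM differed by -2.66 percentage points in place of -3.88. On log2(TPM + 0.1) the median of all genes was 0.11. PPP1R3C had 1 to 21 counts in a library, and what kept it from passing was not tested.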
